A study of Mus musculus with 10 samples.

Results

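The 10 genes described here are the circadian clock genes *Arntl*, *Npas2*, *Per1*, *Per2*, *Per3*, *Cry1*, *Nr1d1* and *Nr1d2* and the clock outputs *Dbp* and *Noct*. They were taken by symbol from a table of 27267 genes, as core members or outputs of the clock, and all 10 were among the 13714 genes tested, whose normalized count averaged 10 or more. The table comes from RNA-sequencing of interscapular brown adipose tissue (iBAT) of male C57BL/6 mice of 4 weeks, 5 wild type (WT) and 5 labelled *Mgp*-KO. *Mgp* encodes matrix Gla protein, an extracellular inhibitor of bone morphogenetic proteins. Its deletion was global, from a line kept as *Mgp*+/- mice (B6.129S7-Mgptm1Kry/KbosJ), so *Mgp* was targeted in every tissue, and per the study's methods and text such mice have vascular disease and a short life. Both groups were kept on a standard light/dark cycle and chow diet, with no other treatment named. The hour of dissection is not given in the sources used here, so each library is a single reading of the clock at an unstated hour, and that hour cannot be told apart from genotype or from the set of replicates.

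The clock of mammalian cells is a feedback loop of transcription. ARNTL (also called BMAL1), paired with CLOCK or its relative NPAS2, binds E-box elements and drives the *Per* and *Cry* genes, whose products block that pair, as well as *Nr1d1* and *Nr1d2* (REV-ERB alpha and beta), whose products repress *Arntl* and *Npas2* through ROR elements. *Dbp*, a transcription factor that binds D-box elements, and *Noct* (nocturnin), an enzyme of the cytoplasm and mitochondria whose RNA cycles in many tissues, lie downstream. In a normal cycle *Arntl* and *Npas2* peak about when *Nr1d1* and *Dbp* are low, and brown fat is known to have such a clock. A difference between mice in any of these genes at a fixed hour may therefore be one of level or of phase, which these data do not separate.

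The elements through which the arms of the loop act were looked up in RefSeq sequence of the mouse build GRCm38.p6, in windows from 250 bases before to 50 bases after each start site, in which 9 of the 10 genes had an entry and *Per2* did not. The motifs searched, on both strands, were the E-box CACGTG, its variant CACGTT, the D-box TTATGTAA or TTACGTAA, the ROR element core TAGGTCA or TGGGTCA, and the cyclic AMP response element TGACGTCA with its shorter core TGACG, which lies within the longer form. Of 32851 mouse windows of this length, 7.15% held the E-box, 4.68% the variant, 1.06% the D-box, 6.45% the ROR core, 1.79% TGACGTCA and 20.8% TGACG. The stretches below lie outside annotated exons except for the site of *Arntl*, run 5' to 3' on the strand of the gene, and show matches in capitals, in which AACGTG is the variant CACGTT read on the other strand. They are shown for *Arntl*, an activator that the REV-ERB proteins repress, for the 4 repressors with an E-box, variant or D-box match, and for *Noct*, the 1 gene of the 10 that limma called within replicates 1 to 3. Their intervals are chr7:113207215-113207464 (*Arntl*, plus strand), chr7:113207531-113207557 (*Arntl* site, plus), chr10:85185065-85185304 (*Cry1*, minus), chr4:151044666-151044915 (*Per3*, minus), chr11:69098699-69098947 (*Per1*, plus), chr11:98775378-98775627 (*Nr1d1*, minus) and chr3:51224197-51224446 (*Noct*, plus).
Arntl: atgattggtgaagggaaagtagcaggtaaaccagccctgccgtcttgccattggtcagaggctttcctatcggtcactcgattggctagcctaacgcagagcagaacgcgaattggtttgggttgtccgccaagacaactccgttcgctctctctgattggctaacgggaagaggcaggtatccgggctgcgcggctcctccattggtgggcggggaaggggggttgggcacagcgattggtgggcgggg
Arntl site: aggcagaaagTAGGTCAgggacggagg
Cry1: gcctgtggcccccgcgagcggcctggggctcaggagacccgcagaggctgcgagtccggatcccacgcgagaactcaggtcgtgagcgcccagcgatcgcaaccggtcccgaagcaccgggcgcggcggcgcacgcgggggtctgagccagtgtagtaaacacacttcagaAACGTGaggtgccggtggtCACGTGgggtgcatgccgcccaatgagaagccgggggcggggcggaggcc
Per3: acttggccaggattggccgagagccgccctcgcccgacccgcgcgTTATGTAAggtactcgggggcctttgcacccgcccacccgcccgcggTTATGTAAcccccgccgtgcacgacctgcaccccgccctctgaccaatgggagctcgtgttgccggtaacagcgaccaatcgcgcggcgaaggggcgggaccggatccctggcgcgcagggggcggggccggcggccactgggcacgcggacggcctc
Per1: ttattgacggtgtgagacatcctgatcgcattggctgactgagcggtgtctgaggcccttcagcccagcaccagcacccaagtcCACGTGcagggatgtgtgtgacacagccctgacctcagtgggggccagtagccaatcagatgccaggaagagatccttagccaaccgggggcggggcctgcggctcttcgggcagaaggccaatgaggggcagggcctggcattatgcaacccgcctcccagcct
Nr1d1: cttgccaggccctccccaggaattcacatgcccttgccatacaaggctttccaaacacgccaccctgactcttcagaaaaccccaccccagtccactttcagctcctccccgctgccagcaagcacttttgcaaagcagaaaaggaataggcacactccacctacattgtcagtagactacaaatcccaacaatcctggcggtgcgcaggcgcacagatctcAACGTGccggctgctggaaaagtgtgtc
Noct: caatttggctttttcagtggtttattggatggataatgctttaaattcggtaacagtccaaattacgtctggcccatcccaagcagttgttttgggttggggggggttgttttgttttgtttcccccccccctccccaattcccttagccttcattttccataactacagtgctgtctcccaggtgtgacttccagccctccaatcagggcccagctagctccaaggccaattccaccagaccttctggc

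The upstream stretch of *Arntl* held none of the motifs, and the ROR core TAGGTCA began 31 bases into the transcribed sequence of the downstream one of its 2 RefSeq starts. *Cry1* held an E-box with its first base 60 bases before the start and a variant E-box 79 bases before it. *Per3* held the D-box TTATGTAA at 2 places, beginning 205 and 158 bases before the start, and *Nr1d1* held the variant E-box 28 bases before it. *Per1* held an E-box 166 bases before the upstream one of its starts. Of the long motifs, *Noct*, *Npas2*, *Nr1d2* and *Dbp* held none in these windows. The short core TGACG lay in the windows of *Noct* and *Cry1*, outside the stretches shown, and in both windows of *Per1*, where it begins 246 bases before the upstream start (in lower case above) and 132 bases before the downstream one. A match is a description of letters and not a bound site.

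The reads of *Mgp* checked the labels. Its normalized counts were 576, 489, 466, 1146 and 839 in WT 1 to 5. Those labelled *Mgp*-KO 1 to 5 had 0, 0.765, 0.821, 500.2 and 331, so replicates 4 and 5 go against their label, and every direction below is one between the libraries as labelled. *Xist* and Y chromosome genes in WT 2 (*Xist* 5090, against 0.754 to 44 in the other 9 libraries) go against the label male. Reads on genes numbered 19616366 to 22252260 in replicates 1 to 3 and 9253793 to 13281873 in replicates 4 and 5, and mitochondrial ribosomal RNA took 0.771% to 1.72% and 6.5% to 16.7% of the counts in these sets. No label names a batch, so the sets are described only by their numbers, and the test of each of the 10 genes is given over all libraries and within each set.

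Over all 10 libraries, with no term for the set or replicate, none of the 10 clock genes passed limma's test between genotypes. Within replicates 1 to 3 *Noct* alone passed it, where it was 5.62-fold lower in the libraries labelled *Mgp*-KO. The count of 0 of 10 came from limma on log2(normalized count + 1), in which 0.0656% of all tested genes were called. At an unadjusted p under 0.05 there were 2 of the 10, *Arntl* and *Noct*, against 10.4% of all tested genes. On the recovered reads edgeR and DESeq2, also without such a term, called 0 of the 10 as well, against 0.0219% and 2.26% of all genes. With a term for the set limma called 1 of the 10 (*Noct*), against 2.36% of all genes. DESeq2 with that term called 4, against 7.42% of its genes, in a fit with an excess of false calls on simulated data. In none of the 10 genes were the groups of 5 apart without overlap, which held for 3.50% of all tested genes. Within replicates 1 to 3 limma called 1 of 10, against 3.54% of all genes (1.65% called lower), and 5 of 10 had an unadjusted p under 0.05, against 22.0%. DESeq2 called 3 of 10 there (*Arntl*, *Npas2* and *Noct*), against 9.19% of its genes. There the groups of 3 did not overlap in 5 of 10 genes, against 30.6% of all genes. *Arntl*, *Npas2*, *Per2* and *Cry1* lay above WT (15.5% of all genes) and *Noct* lay below it (15.1%). Within replicates 4 and 5 limma called 0 of 10 and 0% of all genes, no clock gene had an unadjusted p under 0.05 (6.23% of all genes) and no other tool was run, while *Cry1* and *Noct* did not overlap, as did 41.6% of all genes.

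**Figure D1:**
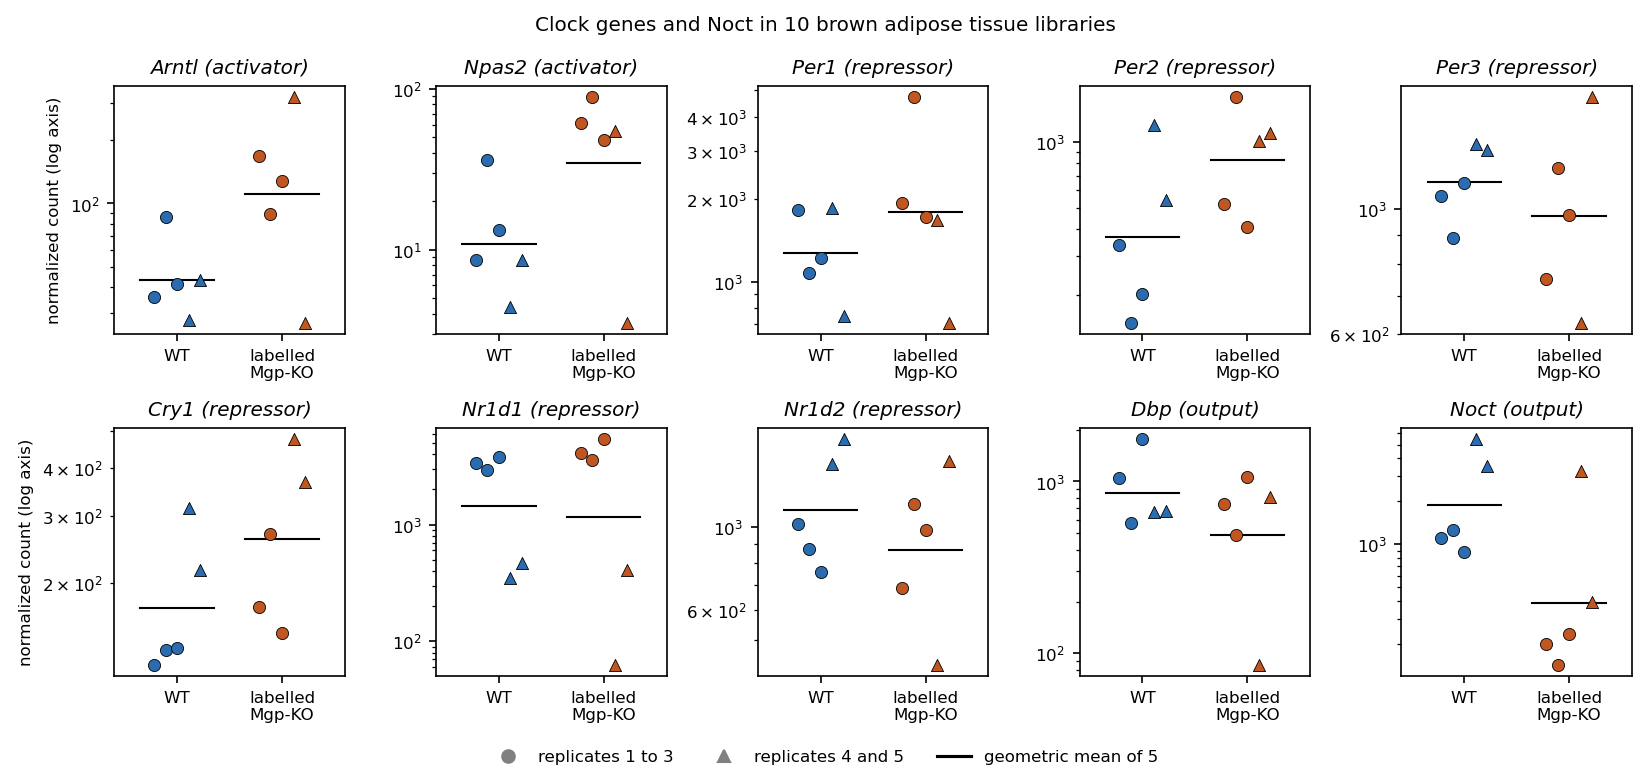
Normalized counts (log axis) of the 10 genes in each library, WT in blue and the libraries labelled *Mgp*-KO in orange, circles for replicates 1 to 3 and triangles for 4 and 5, with lines at the geometric mean of 5. *Nr1d1* splits by set, from 2919 to 5366 in circles and from 63.1 to 465 in triangles, and *Noct* is lower in the labelled *Mgp*-KO libraries within either set.

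The activators *Arntl* and *Npas2* had higher mean counts in the libraries labelled *Mgp*-KO, and neither passed limma's test. *Arntl* (chr7:113207465-113314126), the partner common to both activator pairs, had 35.8, 86.1, 41.2, 27.8 and 43.3 normalized counts in WT 1 to 5. Libraries labelled *Mgp*-KO 1 to 5 had 169, 89.5, 128, 321 and 27.0. Among replicates 1 to 3 every labelled *Mgp*-KO library lay above every WT library, though *Mgp*-KO 2 only just exceeded WT 2, while *Mgp*-KO 4 was the highest and *Mgp*-KO 5 the lowest of all 10. The log2 fold change was 1.34 ± 0.56 (SE; adjusted p = 0.423, limma) over all libraries, 1.29 ± 0.37 (adjusted p = 0.106) within replicates 1 to 3 and 1.41 ± 1.08 (adjusted p = 0.703) within 4 and 5. DESeq2 within replicates 1 to 3 gave *Arntl* an adjusted p of 0.0169, and the adjusted p ranged from 0.0169 to 0.703 over 29 alternatives with the log2 fold change between 0.79 and 1.84.

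*Npas2* (chr1:39193731-39363236), which can stand in for CLOCK, was the scarcest of the 10. Its normalized counts were 8.58, 35.9, 13.2, 4.4 and 8.65 in WT 1 to 5. Those labelled *Mgp*-KO had 61.0, 88.7, 48.4, 55.0 and 3.52. The 4 libraries *Mgp*-KO 1 to 4 lay above all WT libraries and *Mgp*-KO 5 below them, where, as in WT 4, the gene had only 3 reads. *Npas2* showed a log2 fold change of 1.61 ± 0.78 (adjusted p = 0.515) over all libraries, 1.92 ± 0.50 (adjusted p = 0.0833) within replicates 1 to 3 and 1.14 ± 1.32 (adjusted p = 0.781) within 4 and 5. Within replicates 1 to 3 the means were 19.3 ± 14.6 (SD, n = 3) and 66.1 ± 20.6 (n = 3), and DESeq2 gave an adjusted p of 0.0072, with a range of 0.0072 to 0.781 over 28 alternatives and of 1.12 to 2.48 for the log2 fold change. Without *Mgp*-KO 5 the value over the other 9 libraries was 2.37 (adjusted p = 0.106). DESeq2 with a term for the set, which called 7.42% of its genes, gave both activators adjusted p values under the threshold, 0.0285 for *Arntl* and 0.0288 for *Npas2*. On simulated data both of these DESeq2 fits made a far larger share of false calls than the threshold allows, so calls that rest on them alone are uncertain.

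Of the repressors of the PER and CRY family, *Per1*, *Per2* and *Cry1* had positive and *Per3* negative fold changes over all libraries, and none passed the test. *Per1* (chr11:69095217-69109960), which is also induced by glucocorticoids and by cyclic AMP, had 1829, 1079.7, 1225, 1866 and 753 normalized counts in WT 1 to 5. In the labelled *Mgp*-KO libraries the counts were 1935, 4716, 1723, 1687 and 709. *Mgp*-KO 2 stood far above the other 9 libraries, and without it the groups covered much the same range. *Per1* had a log2 fold change of 0.49 ± 0.43 (adjusted p = 0.743) over all libraries, 0.90 ± 0.39 (adjusted p = 0.228) within replicates 1 to 3 and -0.12 ± 0.58 (adjusted p = 0.958) within 4 and 5, and without *Mgp*-KO 2 the value over the other 9 libraries was 0.15 (adjusted p = 0.925).

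*Per2* (chr1:91415982-91459324), a core repressor of the loop, had 337, 149.7, 202, 1196 and 545 normalized counts in WT 1 to 5. The labelled *Mgp*-KO libraries had 522, 1594, 409.7, 1012 and 1091. Among replicates 1 to 3 all labelled *Mgp*-KO libraries lay above WT, with *Mgp*-KO 2 again the highest, and in replicates 4 and 5 the groups overlapped. The mean in replicates 1 to 3 was 3.67-fold higher (842 ± 654 against 229.6 ± 96.6, SD, n = 3 each), with a log2 fold change of 1.68 ± 0.52 (adjusted p = 0.122). Without *Mgp*-KO 2 the mean of the other 2 was 466, which is 2.03-fold higher than WT 1 to 3. Over all libraries the log2 fold change was 1.16 ± 0.55 (adjusted p = 0.493), and within 4 and 5 it was 0.38 ± 0.43 (adjusted p = 0.777).

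*Per3* (chr4:151003652-151044665), the PER protein that the loop can spare, varied least of the 10. Its counts were 1056, 889.5, 1112, 1305 and 1275 in WT 1 to 5 and 749.9, 1182, 978, 628 and 1580.3 in the labelled *Mgp*-KO libraries. *Mgp*-KO 4 was the lowest and *Mgp*-KO 5 the highest of the 10, on either side of the WT range. The difference on the log2 scale was -0.20 ± 0.25 (adjusted p = 0.830) over all libraries, -0.09 ± 0.18 (adjusted p = 0.815) within replicates 1 to 3 and -0.37 ± 0.47 (adjusted p = 0.800) within 4 and 5.

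*Cry1* (chr10:85131700-85185064), a cryptochrome that represses the activator pair, had 122, 133, 135, 315 and 216 normalized counts in WT 1 to 5. The labelled *Mgp*-KO libraries had 173, 269, 148, 476 and 368. Within either set every labelled *Mgp*-KO library lay above every WT library, although across the sets WT 4 and 5 exceeded *Mgp*-KO 1 and 3. Its log2 fold change was 0.60 ± 0.37 (adjusted p = 0.606) over all libraries, 0.54 ± 0.23 (adjusted p = 0.218) within replicates 1 to 3 and 0.68 ± 0.36 (adjusted p = 0.679) within 4 and 5. Only DESeq2 with a term for the set put *Cry1* past the threshold (adjusted p = 0.0429, with the same excess of false calls, in a range of 0.0429 to 0.844 over 29 alternatives), and the log2 fold change was positive in all 29, from 0.14 (WT 1 to 5 against *Mgp*-KO 1 to 3) to 0.82, with 0.38 when *Mgp*-KO 4 was left out.

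For the REV-ERB receptors the direction between genotypes differed between the sets, without a test that called this difference. *Nr1d1* (chr11:98767932-98775333) had 3362, 2919, 3809, 347 and 465 normalized counts in WT 1 to 5. The labelled *Mgp*-KO libraries had 4122, 3532, 5366, 63.1 and 410.3. All of replicates 1 to 3 lay far above all of replicates 4 and 5, and within either set the groups overlapped. *Nr1d1* had a log2 fold change of 0.35 ± 0.18 (adjusted p = 0.299) within replicates 1 to 3, -1.31 ± 0.81 (adjusted p = 0.679) within 4 and 5 and -0.31 ± 1.20 (adjusted p = 0.959) over all libraries. The negative value within 4 and 5 came from *Mgp*-KO 4, since *Mgp*-KO 5 was at 1.01 times the mean of WT 4 and 5. Without *Mgp*-KO 4 the value over all libraries became 0.73 (adjusted p = 0.826), and 0.25 with the set term. *Thra*, the thyroid hormone receptor gene on the opposite strand, shares 263 bases (8.55%) of the exonic length of *Nr1d1*, and the strand setting of the counting is not given in the sources used here.

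*Nr1d2* (chr14:18204054-18239127) had 1016, 874, 757, 1467 and 1706 normalized counts in WT 1 to 5. The labelled *Mgp*-KO libraries had 685, 1148, 981, 429 and 1489. Unlike *Nr1d1* it was highest in WT 4 and 5 and *Mgp*-KO 5, and *Mgp*-KO 4 was again the lowest of the 10. The log2 fold change was -0.35 ± 0.34 (adjusted p = 0.775) over all libraries, 0.07 ± 0.21 (adjusted p = 0.878) within replicates 1 to 3 and -0.98 ± 0.58 (adjusted p = 0.679) within 4 and 5. In the last set *Mgp*-KO 5 was at 0.938 times the mean of WT, and with the set term but without *Mgp*-KO 4 the value was 0.02.

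Both outputs had negative fold changes, of which that of *Noct* within replicates 1 to 3 passed the test. *Dbp* (chr7:45705088-45710203), a direct target of the activator pair, had 1053, 572, 1761, 668 and 673 normalized counts in WT 1 to 5. The labelled *Mgp*-KO libraries had 736, 491, 1067, 85.8 and 817. *Mgp*-KO 4 stood far below the other 9 libraries, among which the groups overlapped. The log2 fold change was -0.83 ± 0.60 (adjusted p = 0.678) over all libraries, -0.49 ± 0.43 (adjusted p = 0.547) within replicates 1 to 3 and -1.33 ± 0.94 (adjusted p = 0.687) within 4 and 5. Without *Mgp*-KO 4, whose *Mgp* reads go against its label, the value over the other 9 libraries was -0.20 (adjusted p = 0.878), or -0.25 with the set term, and *Mgp*-KO 5 lay above both WT libraries of its set. *Sphk2*, on the opposite strand, shares 539 bases (18.0%) of the exonic length of *Dbp*.

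*Noct* (chr3:51224447-51251644) had 1095, 1260.1, 876, 5448 and 3523 normalized counts in WT 1 to 5. The libraries labelled *Mgp*-KO 1 to 5 had 199.7, 142, 233, 3246 and 394. Each labelled *Mgp*-KO library lay below every WT library of its own set, by a wide gap in replicates 1 to 3, and over all 10 the groups overlapped only because *Mgp*-KO 4 exceeded WT 1 to 3. Within replicates 1 to 3 *Noct* fell from 1077 ± 193 to 191 ± 46.4 (SD, n = 3 each), with a log2 fold change of -2.50 ± 0.22 (adjusted p = 0.00445). Leaving out WT 2 gave -2.38 (adjusted p = 0.0434), in a comparison that called 0.190% of all genes. Within replicates 4 and 5 the log2 fold change was -1.95 ± 0.90 (adjusted p = 0.679). It came mostly from *Mgp*-KO 5, at 0.0878 times the mean of WT 4 and 5, while *Mgp*-KO 4 was at 0.724 times that mean.

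Across the 10 libraries *Noct* had a log2 fold change of -2.28 ± 0.80 with an adjusted p of 0.323, and a two-sided exact permutation test of this value alone, 1 of 10 such tests, gave p = 0.0476 with 0.00794 as the smallest p possible. With a term for the set in limma, which called 2.36% of all genes, *Noct* was the 1 clock gene of 10 past the threshold (adjusted p = 0.0268). Without *Mgp*-KO 4, whose *Mgp* reads go against its label, the log2 fold change over the other 9 libraries was -3.05 (adjusted p = 0.0375). The same library left out of the fit with the set term gave -2.80 (adjusted p = 0.00109), where 4.94% of all genes were called. WT 1 to 5 against *Mgp*-KO 1 to 3 left out both libraries whose *Mgp* reads go against their label but kept WT 2, which goes against the label male. It gave -3.32 (adjusted p = 0.0235) and called 1.95% of all genes. That comparison sets WT of both sets against replicates 1 to 3 alone, so the higher *Noct* of WT 4 and 5 adds to the value, which was -2.50 within replicates 1 to 3. The sign was negative in all 29 alternatives, 10 of which put *Noct* past the threshold, with adjusted p from 1.95e-23 to 0.679. The lowest of these came from DESeq2 within replicates 1 to 3. That fit and DESeq2 with the set term, also among the 10, made an excess of false calls on simulated data.

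**Figure D2:**
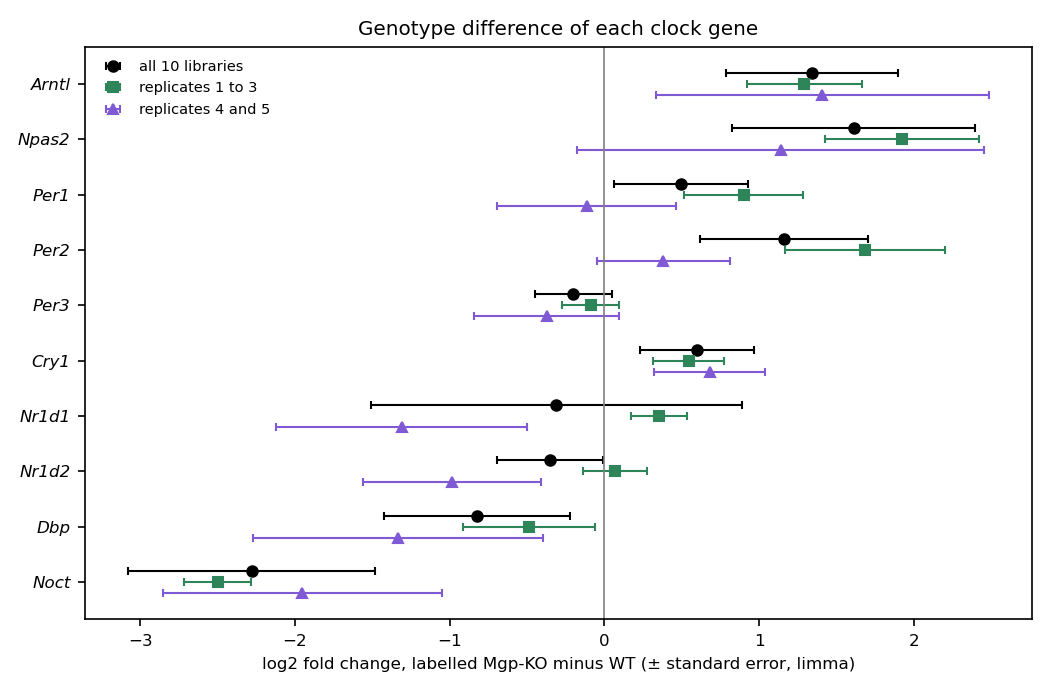
Log2 fold change (labelled *Mgp*-KO minus WT, limma, bars are standard errors) of the 10 genes over all libraries (black), within replicates 1 to 3 (green) and within replicates 4 and 5 (purple). The estimates for *Noct* lie between -2.50 and -1.95 and those for *Arntl* and *Npas2* between 1.14 and 1.92, while those for *Nr1d1* range from -1.31 to 0.35.

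Of 10 brown adipocyte markers, 2 had positive and the others negative fold changes within replicates 1 to 3 (median -0.68, against 0.02 for all tested genes). There 2 were called, both lower like *Noct*, against 1.65% of all genes called lower, namely *Ucp1*, the uncoupling protein of brown fat (log2 fold change -2.76, adjusted p = 0.0454), and *Elovl3*, a fatty acid elongase (-3.05, adjusted p = 0.0313). Over all libraries and within replicates 4 and 5, 0 of the 10 were called, and within 4 and 5 none was positive (median -0.58). The summed level of the list was 212520.4 to 228584 in WT 1 to 3 and 148849.5 to 185045 in *Mgp*-KO 1 to 3, and *Ucp1* was detected in every library, with at least 2201 normalized counts. In bulk tissue fewer cells of a type and less RNA per cell cannot be told apart, and the part of this shift in the difference of *Noct* was not tested. None of the markers of skeletal muscle (6), endothelial cells (6), myeloid cells (6), progenitors (6) or erythroid cells (4) was called within replicates 1 to 3. In replicates 1 to 3 the summed level of WT and labelled *Mgp*-KO libraries ranged from 13874 to 15375 and from 14675 to 18168 for endothelial, from 1185 to 1486 and from 1046 to 1488 for myeloid, and from 10389.6 to 21341 and from 8028 to 10716 for progenitor markers. Muscle markers ranged from 43.4 to 6111 in WT and from 41.9 to 35598 in the labelled *Mgp*-KO libraries of this set, and erythroid markers from 6115 to 14122 and from 2809.7 to 15475. Within replicates 4 and 5 none of these markers was called, while 6 of 6 endothelial (median log2 fold change 0.63), 6 of 6 myeloid (0.52), 4 of 6 progenitor (0.35), 4 of 4 erythroid (1.48) and 5 of 6 muscle markers (0.27) had positive fold changes.

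The high *Per1* and *Per2* of *Mgp*-KO 2 stood beside other genes that glucocorticoids induce. The same library had the largest sum of skeletal muscle markers (35598) and the smallest of brown adipocyte markers (148849.5) of the 10. *Fkbp5*, a chaperone partner of the glucocorticoid receptor, had 3894 normalized counts in *Mgp*-KO 2 against 61.4 to 645 in the other 9 libraries, and *Zbtb16*, a transcription factor, had 5102 against 183 to 1508. Of the 7 genes of this list, which includes *Per1*, 0 passed limma's test over all libraries and 0 within replicates 1 to 3. The summed level of the list was 5569 to 6793 in WT 1 to 3 and 7802 to 29196 in *Mgp*-KO 1 to 3. In replicates 4 and 5 the sums overlapped (6991 to 18061 against 9341 to 19516, with 4 of 7 fold changes positive), and *Sgk1* and *Klf9* of this list were higher in *Mgp*-KO 4 (6312 and 8149) than in *Mgp*-KO 2 (2342 and 7113). Of 8 immediate early genes, which respond within minutes to stimuli and to handling of tissue, 4 were called in replicates 1 to 3 (*Fos*, *Junb*, *Egr1* and *Ier2*). All 4 were higher in the labelled *Mgp*-KO libraries, against 260 of 13714 tested genes called higher there (3.54% called in either direction). Over all libraries and within replicates 4 and 5, 0 of the 8 were called. *Fos* had 55.1 to 79.4 in WT 1 to 3 and 501 to 631 in *Mgp*-KO 1 to 3 (log2 fold change 2.98, adjusted p = 0.00142), and the sum of the list was 5852 to 8581 against 13247 to 16006. In WT 4 and 5 *Fos* had 38.1 and 88.3 and in *Mgp*-KO 4 and 5 131 and 24.6, and the sums of the list overlapped (6176 to 6506 against 2321 to 7618, with 3 of 8 fold changes positive and a median of -0.03). The part of these responses and cell type shifts in the values of *Per1* and *Per2* was not tested.

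Between the sets of replicates, 4 of the 10 genes differed, 3 of them higher and 1 lower in replicates 4 and 5. With genotype in the model limma called 38.2% of all tested genes between the sets (18.3% higher and 19.9% lower), so a share of 4 in 10 is near the background. *Nr1d1* was lower in replicates 4 and 5 (log2 difference -3.89, adjusted p = 1.71e-04), with means of 322 against 3852, and was the 1 clock gene of 10 whose sets did not overlap, against 25.2% of all genes (13.4% in that direction). *Noct* was higher by 2.31 (adjusted p = 0.00275), *Per2* by 1.24 (adjusted p = 0.0378) and *Cry1* by 1.07 (adjusted p = 0.00161). Without *Mgp*-KO 4, 8 of the 10 genes were called between the sets, against 39.3% of all genes. Depth and the share of mitochondrial ribosomal RNA move with the set, and their part in these differences was not tested. None of the 10 genes was called for a genotype difference that differed between the sets, none had an unadjusted p under 0.05 for it (10.3% of all genes), and the only gene called among all tested (0.00729%) was *Mgp* itself (adjusted p = 2.51e-04).

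*Mgp*-KO 4 had the highest count of the 10 libraries for *Arntl* and *Cry1* and the lowest for *Per3*, *Nr1d1*, *Nr1d2* and *Dbp*. It was at an extreme in 6 of 10 clock genes, and in 50.0% of all tested genes (highest in 25.8%, lowest in 24.2%), so this count is near the background of that library. In it *Arntl* was 9.01 times and *Npas2* 8.44 times the mean of WT 4 and 5, while *Nr1d1* was 0.155, *Nr1d2* 0.27 and *Dbp* 0.128 times that mean. *Mgp*-KO 5, the other labelled *Mgp*-KO library of this set, had 0.758, 0.539, 1.01, 0.938 and 1.22 times the mean for the same genes. The other repressors of *Mgp*-KO 4 were not all low, with *Cry1* at 1.79, *Per1* at 1.29, *Per2* at 1.16 and *Per3* at 0.487 times the mean of WT 4 and 5. *Mgp*-KO 4 also had the fewest reads, the largest share of mitochondrial ribosomal RNA (16.7%) and the largest summed level of erythroid markers (96668 against 2809.7 to 25091 in the other 9). Its endothelial sum was also the largest (33759 against 13696 to 20335), and its brown adipocyte sum was 208078 against 300172 to 410674 in the other libraries of its set, and the part of these in its clock gene counts was not tested.

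Setting the arms against each other, the median log2 fold change over all libraries was 1.47 for the 2 activators, 0.15 for the 6 repressors and -1.55 for the 2 outputs, against 0.03 for all tested genes. Within replicates 1 to 3 the medians were 1.61, 0.45 and -1.49, and within replicates 4 and 5 they were 1.27, -0.24 and -1.64, against 0.02 for all genes in either set. These medians cover the listed members alone and depend on that choice. *Clock*, the usual partner of ARNTL, is not among them and had 0.17 over all libraries, 0.03 within replicates 1 to 3 and 0.38 within 4 and 5. The activator median within 4 and 5 rests on *Mgp*-KO 4, since in *Mgp*-KO 5 both activators lay below the mean of WT 4 and 5. The output median there joins low values of different libraries. *Dbp* was at 0.128 times that mean in *Mgp*-KO 4 and 1.22 in *Mgp*-KO 5, and *Noct* at 0.724 and 0.0878. The repressors did not move as a block, with 5 of 6 positive within replicates 1 to 3 and 2 of 6 within 4 and 5. The log2 ratio of *Arntl* to *Nr1d1*, read only between libraries since the genes differ in length, was -6.55, -5.08, -6.53, -3.64 and -3.43 in WT 1 to 5. It was -4.61, -5.30, -5.39, 2.34 and -3.93 in the labelled *Mgp*-KO libraries. *Mgp*-KO 4 was the only library above 0, and among the other 9 all of replicates 4 and 5 lay above all of replicates 1 to 3. For *Arntl* to *Dbp* the ratio was -4.88, -2.73, -5.42, -4.58 and -3.96 in WT and -2.12, -2.46, -3.06, 1.90 and -4.92 in the labelled *Mgp*-KO libraries, so that *Mgp*-KO 1, 2 and 4 lay above all WT libraries, *Mgp*-KO 3 within their range and *Mgp*-KO 5 at its lower end.

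**Figure D3:**
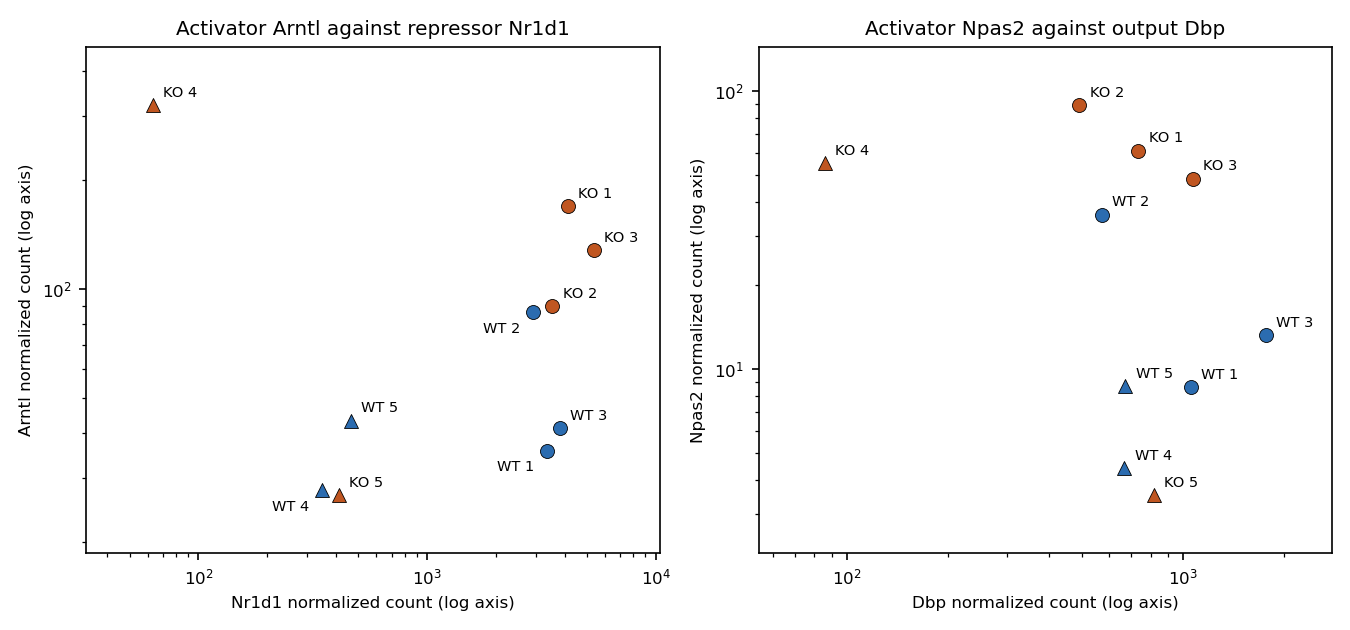
Normalized counts (log axes) of *Arntl* against *Nr1d1* (left) and of *Npas2* against *Dbp* (right) in each library, WT blue and labelled *Mgp*-KO orange, circles for replicates 1 to 3 and triangles for 4 and 5. *Mgp*-KO 4 sits alone at 321 *Arntl* with 63.1 *Nr1d1*, and *Mgp*-KO 1 to 3 lie above WT 1 to 3 in both activators.

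The members also differed in how much they varied. The standard deviation of log2 counts over the 10 libraries was 2.16 for *Nr1d1*, 1.86 for *Noct*, 1.59 for *Npas2*, 1.19 for *Arntl*, 1.15 for *Dbp*, 1.14 for *Per2*, 0.79 for *Per1*, 0.69 for *Cry1*, 0.60 for *Nr1d2* and 0.40 for *Per3*. The median of the 10 was 1.14, against 0.50 for all tested genes and 0.59 for 17 other clock genes, and *Nr1d1* lay at the 98.7 percentile of all tested genes and *Per3* at the 33.3 percentile. The normalized counts of *Nr1d1* spanned 85.0-fold, from 63.1 to 5366, and those of *Per3* 2.52-fold. Divided by exonic length, the mean level in WT per kilobase was 709 normalized counts for *Nr1d1*, 316 for *Dbp*, 239.9 for *Per1*, 229 for *Noct*, 215 for *Nr1d2*, 117 for *Per3*, 83.0 for *Per2* and 55.2 for *Cry1*. The activators were far lower, at 6.22 for *Arntl* (3.7 to 11.4) and 2.96 for *Npas2* (0.918 to 7.5). On this scale the ranges of *Arntl* and *Npas2* overlapped, and both lay under that of *Cry1* (36.6 to 94.4), which overlapped those of *Per2* (25.6 to 204) and *Per3* (92.6 to 136). The range of *Per3* lay just under that of *Nr1d2* (140.0 to 315), and those of *Nr1d2*, *Noct* (82.2 to 511), *Per1* (134 to 331), *Dbp* (191 to 588) and *Nr1d1* (113 to 1238) overlapped.

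Of 18 other clock genes 17 could be tested, since *Fbxl21*, a ubiquitin ligase subunit for cryptochromes, was under the filter with means of 8.46 in WT and 6.28 in the labelled *Mgp*-KO libraries. Limma called 0 of the 17 over all libraries, where none had an unadjusted p under 0.05 and 14 had positive fold changes, with a median of 0.17. Within replicates 1 to 3 it called 0, 3 had an unadjusted p under 0.05 (22.0% of all genes did) and 15 had positive fold changes, with a median of 0.45. These 3, named after their values were seen, were the repressor *Cry2* (log2 fold change 0.46), *Nampt*, an enzyme of NAD synthesis under clock control (0.70), and the cell cycle kinase *Wee1* (-0.42). Within replicates 4 and 5 it called 0, none had an unadjusted p under 0.05, and 8 were positive, with a median of -0.03.

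*Clock*, the usual partner of ARNTL, had 939, 1159.8, 589, 1115 and 1204 normalized counts in WT 1 to 5 and 725, 1085, 867, 2457 and 927 in the labelled *Mgp*-KO libraries (log2 fold change 0.17 ± 0.33, adjusted p = 0.897). Only *Mgp*-KO 4 lay outside the WT range, above it, as it did for *Arntl*. Within replicates 1 to 3 the groups of 6 of the 17 genes did not overlap, 4 above and 2 below WT, and within replicates 4 and 5 those of 7 did not, shares near the 30.6% and 41.6% of all genes. *Tef*, a relative of *Dbp*, lay above WT in replicates 1 to 3 and below it in replicates 4 and 5, as did *Nampt*, and *Timeless* did the reverse. These 3 were the genes of the 17 with an unadjusted p under 0.05 for the difference between the sets (0.0461, 0.0135 and 0.017 for *Tef*, *Nampt* and *Timeless*, against 10.3% of all genes), and none was called (adjusted p of 0.480, 0.455 and 0.455).

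**Figure D4:**
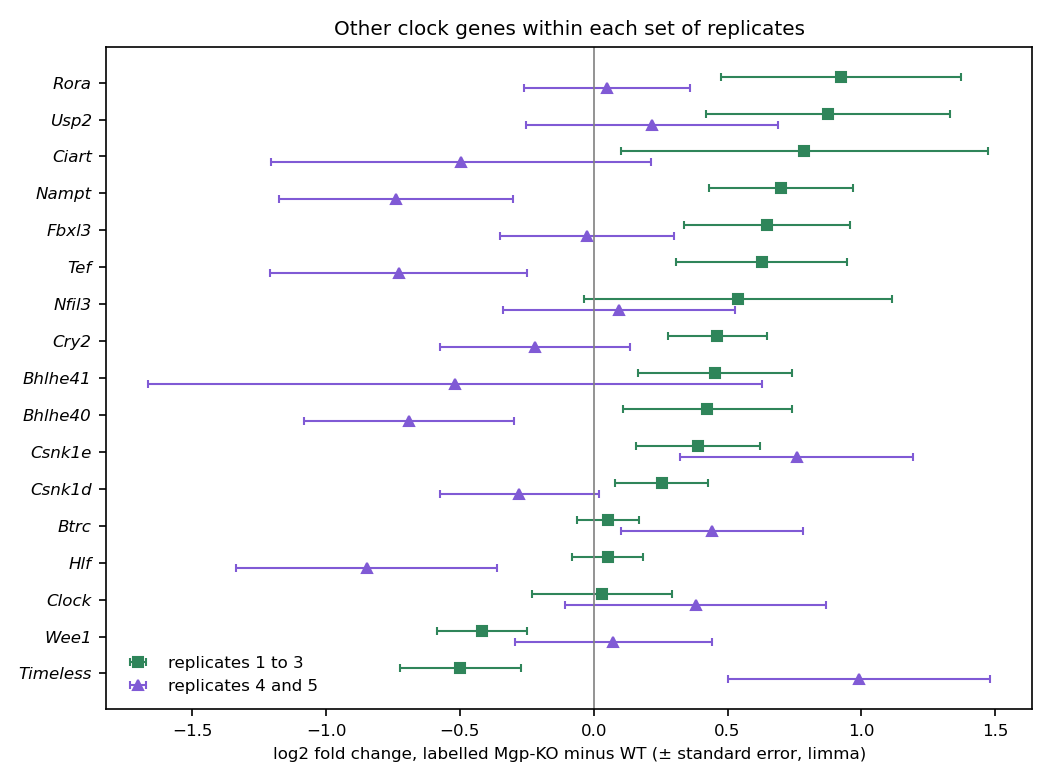
Log2 fold change (labelled *Mgp*-KO minus WT, limma, bars are standard errors) of the 17 other clock genes tested, within replicates 1 to 3 (green squares) and within replicates 4 and 5 (purple triangles). Of the green squares 15 lie right of 0, and of the triangles 8 do.

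Each gene was centred on its mean within each set, and Pearson's r was then taken over the 10 libraries. It was 0.93 between *Arntl* and *Npas2* (0.89 without *Mgp*-KO 4), 0.85 between *Per1* and *Per2* (0.87), 0.88 between *Nr1d1* and *Dbp* (0.63) and 0.9 between *Per3* and *Nr1d2* (0.72). It was -0.85 between *Arntl* and *Dbp* (-0.65), -0.69 between *Arntl* and *Nr1d1* (-0.13) and -0.89 between *Arntl* and *Per3* (-0.74). These pairs were picked from all pairs of the 10 genes. The values in brackets drop *Mgp*-KO 4 after the centring, whose means still included it. They are thus not free of that library, and values centred without it were not computed. The r of -0.69 depends on that library. The genes outside the clock lists whose pattern was most like that of *Arntl* were *Cyth3*, *Tango6* and *Gm15903*, with r of 0.978, 0.973 and 0.966. Those most opposed to it were *E130309D02Rik*, *9330162G02Rik* and *Tmem136*, with r of -0.951, -0.948 and -0.939. *Mrpl49*, *Smad2* and *Wdr83os* were most like *Dbp*, with r of 0.963, 0.961 and 0.96. These are the extremes of 13714 genes over 10 libraries that share their depths and sets, and are given as a description.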

How the data were processed

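RNA from iBAT of 10 mice was sequenced, and groups and replicate numbers were taken from the labels. Per the methods, the authors mapped single reads to mm10 with STAR, counted them on genes and divided each library by its DESeq2 size factor. The deposited values are thus a signal per gene, in normalized counts. The annotation release and strand setting are not given in the sources used here. All values (100%) were whole multiples of 1 read within 0.01 reads, so whole reads were recovered.

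Limma 3.58.1 (R 4.3.3; lmFit, eBayes with trend) was run on log2(normalized count + 1) of the 13714 genes whose mean was 10 or more, with Benjamini-Hochberg adjustment over these genes and a threshold of 0.05. DESeq2 1.42.0, with default parameters, and edgeR 4.0.16, with its quasi-likelihood test, were run on recovered reads. Single values were compared by two-sided exact permutation tests. These models were tested on simulated data, in which DESeq2 within replicates 1 to 3 and with a set term exceeded the threshold's share of false calls by far. A gene at 0 reads is under a floor of 3 reads, and such floors cover counting error only.

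The 10 genes, the other clock genes and the marker lists were chosen with earlier results of these data known. Of the other clock genes in the design, 1 is not reported here. All 10 members are named, and genes of like pattern are the 3 with the highest or lowest r outside the lists. Coordinates and exonic lengths come from GENCODE on GRCm38 (mm10), and sequences from RefSeq on GRCm38.p6. There were 27 alternatives fixed with the design and 2 added after the data were seen, which leave out *Mgp*-KO 4, or 4 and 5. The labels give each library as a separate sample, and the methods speak of 5 pairs of mice without tying the replicate numbers to pairs.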

Additional observations from a re-analysis of the deposited data

Results flagged for a closer look

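The log2 level of *Npas2* in *Mgp*-KO 5 stood apart from the other 4 libraries labelled *Mgp*-KO. Its gap to the nearest of them was 0.801 of the range of the group, above the value of 0.71 that Dixon's test sets for 5 samples at the 95% level. The library had 3 reads of the gene (3.52 normalized counts), against 34 to 116 reads in the others. Of the 20 groups checked, the 10 genes in each genotype, this was the only 1 past that value, and chance alone gives about 1 in 20.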

How the results depend on the processing

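Over all libraries 9 genes and none of the 10 clock genes passed the threshold. The number of genes was 29 with a pseudocount of 10, 1 without the filter, 15 with a filter at a mean of 50, 34 after quantile normalization, 3 in edgeR and 374 in DESeq2. It was 324 in limma and 1152 in DESeq2 with a set term, 486 in limma and 1354 in DESeq2 within replicates 1 to 3, 26 there without WT 2, and 0 within replicates 4 and 5. The alternatives added later gave 678 (set term without *Mgp*-KO 4) and 267 (WT 1 to 5 against *Mgp*-KO 1 to 3). Leaving out 1 library at a time gave 0 to 93 genes and 0 to 1 clock genes. *Noct* was the 1 clock gene called with the set term, within replicates 1 to 3 with or without WT 2, without *Mgp*-KO 4 and in both alternatives added later. DESeq2 called 3 clock genes within replicates 1 to 3 (*Arntl*, *Npas2* and *Noct*) and 4 with the set term (also *Cry1*).

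Same-numbered libraries had a mean correlation of deviations of 0.390, against 0.416 for other numbers of the same set, and that of pair 2 was 0.0559. The deviations were taken from the genotype means alone, so the difference between the sets enters them, and pair 2 holds WT 2. This check therefore cannot decide whether the numbers pair the mice. The main fit did not take them as pairs, although the methods speak of 5 pairs. With the replicate block limma called 270 genes and edgeR 222, and 1 clock gene each, *Noct* (adjusted p = 0.0191 and 0.0283).

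*Arntl*, *Npas2*, *Per2* and *Cry1* kept a positive and *Dbp* and *Noct* a negative fold change under every alternative that gave a value (*Npas2* was under the filter at 50). *Per1* turned to -0.12 within replicates 4 and 5, and *Per3* to 0.03 with the set term without *Mgp*-KO 4. The log2 fold change of *Nr1d1*, -0.31 over all libraries, turned to 0.30 in edgeR, 0.31 in DESeq2, 0.35 within replicates 1 to 3 (0.36 in DESeq2, 0.26 without WT 2), 0.25 with the set term without *Mgp*-KO 4 and 1.58 against *Mgp*-KO 1 to 3. It ranged from -0.87 to 0.73 as 1 library at a time was left out, being positive without WT 3 (0.04), *Mgp*-KO 4 (0.73) or *Mgp*-KO 5 (0.06). *Nr1d2* turned to 0.07 within replicates 1 to 3 (0.08 in DESeq2, 0.06 without WT 2) and to 0.02 with the set term without *Mgp*-KO 4. The cause of these changes was not tested. With 5 mice per genotype, with 3 libraries that go against a label, and 3 reads of *Npas2* in 2 libraries, these data limit what can be said of the clock to the libraries as labelled.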
